A study of Mus musculus with 40 samples.

Results

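The AP-1 transcription factor genes described here are 10 genes chosen by name: *Fos*, *Fosb*, *Fosl1*, *Fosl2*, *Jun*, *Junb*, *Jund*, *Atf3*, *Maff* and *Batf3*. All 10 were found among the 55414 gene identifiers of the count table, and all 10 were among the 25210 genes tested. They were measured by poly-A RNA sequencing in 40 libraries of mouse cardiac fibroblasts (C57BL/6J_TAK1fl/fl, from adult mice, passage 1). Every library, controls included, came from cells with the floxed *Map3k7* (TAK1) allele that had been expanded in serum with bFGF and had received an adenovirus. The virus carried iCre, a Cre recombinase that removes the floxed exon, or LacZ as the control, both driven by the CMV promoter, which is not specific to a cell type. After serum starvation the cells received no ligand (CTRL), bFGF at 20 ng/ml, TGFβ at 10 ng/ml, IL-1β at 15 ng/ml or TNFα at 10 ng/ml for 24 h. This gave 10 groups with 4 replicates each. The paper describes the replicates of this sequencing experiment as biological and male, so the results bear on cells from males only. The labels do not name the animals behind the replicates, so the p-values measure the spread between these samples.

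AP-1 is a family of dimeric basic leucine zipper factors. Jun proteins pair with each other or with Fos proteins and bind the TGANTCA site of many growth, matrix and inflammatory genes, while Fos proteins need a partner. *Fos*, *Fosb*, *Jun*, *Junb* and *Atf3* are immediate early genes whose transcripts rise within minutes of a stimulus and then usually decline, so that 24 h is a late time for them. TAK1 is a kinase that links the IL-1, TNF and TGFβ receptors to p38, JNK and NF-κB, and JNK phosphorylates c-Jun. Phosphorylation was not measured in these libraries. In separate blots of cardiac fibroblasts, the paper reports that IL-1β and TNFα activated NF-κB, p38 and JNK hardly at all once TAK1 was deleted. It reports no effect of the deletion on p38 activation by TGFβ.

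Total counts ranged from 25360947 to 66160732 per library, with a median of 36183962. All 8 fibroblast markers were counted, at a summed 16061 to 60332 CPM in each library (counts scaled to a common library size, here from the raw totals), against 0.785 to 15.3 CPM for 4 endothelial and 13.9 to 160 CPM for 5 leukocyte markers. Of 4 cardiomyocyte markers, 3 had at least 10 counts over all libraries and summed to 1.09 to 117 CPM, most of it *Tnnt2* in the unstimulated groups, while *Myh6* stayed under 10 counts. The 4 mural markers summed to 471 to 2258 CPM, most of it *Rgs5* and *Pdgfrb*. These sums differed between groups. The fibroblast sum was lowest in iCre cells with TNFα, at 16061 to 24024 CPM. The cardiomyocyte sum averaged 54.7 CPM in LacZ CTRL and 32 in iCre CTRL cells, against 1.91 to 14.6 in the 8 ligand groups. The leukocyte sum averaged 100 and 59.6 CPM in the unstimulated groups and 29.6 to 88.2 under ligands. The mural sum was higher on average in iCre than in LacZ cells without ligand and with every ligand, with overlapping ranges. It averaged 908 CPM in LacZ CTRL and 1258 in iCre CTRL cells, and 642 and 1101 CPM with TNFα. The part of these shifts in the AP-1 results was not tested. Gene levels in CPM use totals scaled by TMM, the scaling of edgeR. *Map3k7*, the targeted gene, had a mean of 153 CPM in LacZ CTRL and 127 CPM in iCre CTRL cells (log2 difference -0.28, adjusted p = 0.137, and 0.00393 with a replicate block). It was lower in iCre cells with TGFβ, IL-1β and TNFα (log2 fold changes -0.67, -0.82 and -0.71), whereas with bFGF the value was -0.40 (adjusted p = 0.351, and 0.000409 with the block). The counts cover all exons, and only exon 2 is floxed, so they bear only in part on the deletion. Replicate 2 stood apart for *Fos*, *Jun* and *Junb* in the LacZ CTRL group, and 12 libraries, those of iCre cells given TGFβ, IL-1β or TNFα, differed in base composition. By the numbers in the library names, these are also the last 12 libraries of the series. Library order and these treatments therefore cannot be told apart as sources of the shift. In these 12 libraries the log2 level rose by 0.20 to 0.34 per 10% of exonic GC content, while the other 28 had slopes of -0.25 to 0.00. The exons of the 10 genes hold 51.9% to 67.1% GC.

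The levels spanned a wide range. Per kilobase of exon, *Jund* was highest in unstimulated LacZ cells, at 110 CPM per kb, ahead of *Junb* at 33.9, *Fosl2* at 16.5 and *Jun* at 15.1 CPM per kb. *Maff* had 6.63, *Fos* 3.54, *Fosl1* 2.94, *Atf3* 1.61 and *Fosb* 0.76 CPM per kb. In iCre cells with TNFα the order was different, with *Junb* at 92.3, *Jund* at 88.0, *Jun* at 69.6 and *Fosl1* at 61.9 CPM per kb. *Batf3*, a partner of Jun proteins best known from dendritic cells, was close to absent. Its counts per library ran from 0 to 20 and no group mean exceeded 0.234 CPM, near the 0.0453 to 0.118 CPM that 3 counts are worth on raw totals, so no fold change is given for it. It passed the test in none of the comparisons (edgeR, without or with a replicate block).

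**Figure D1:**
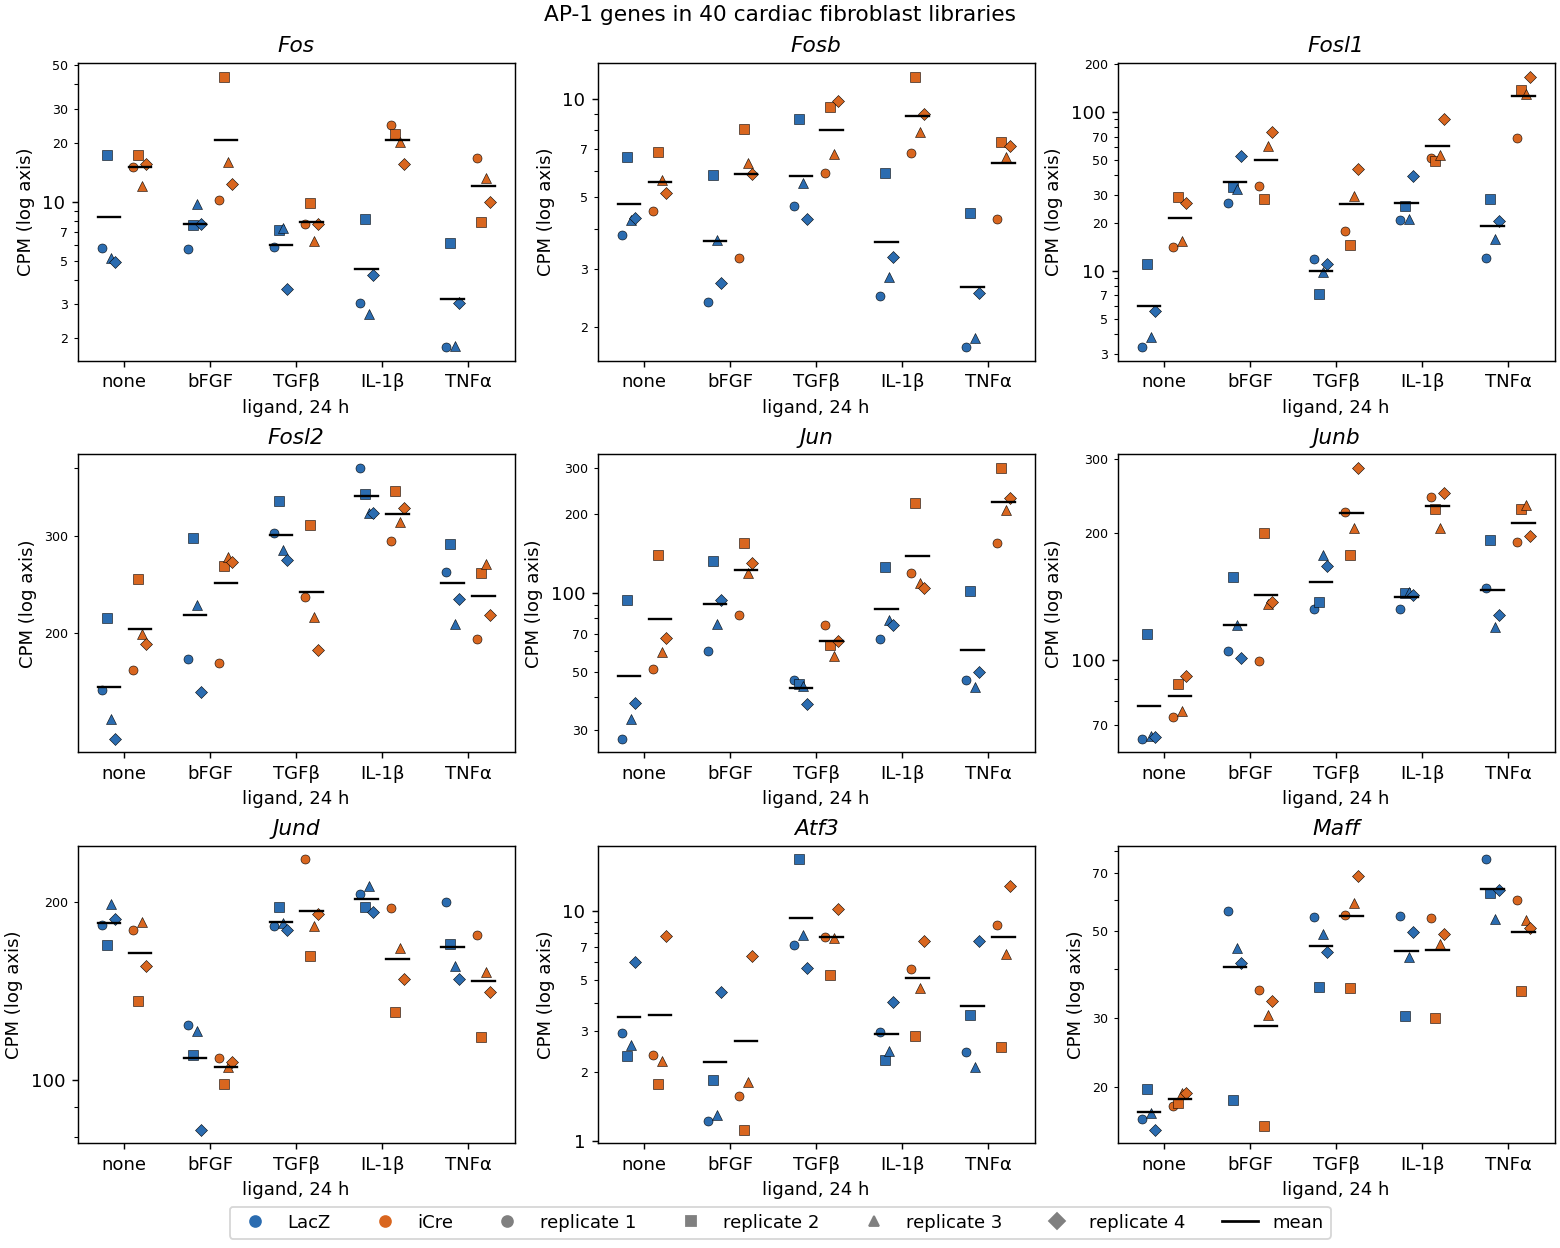
CPM of 9 AP-1 genes (*Batf3* is left out because of its low counts) on log axes, by ligand, in LacZ (blue) and iCre (orange) libraries, with a marker shape for each replicate number and a bar at the mean of 4. The iCre TNFα libraries of *Fosl1* (68.2 to 167 CPM) and *Jun* (155 to 299 CPM) lay above those of their LacZ counterparts, and the bFGF libraries of *Jund* lay below the unstimulated ones of the same virus.

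The groups were compared in pairs of 4 against 4 libraries with edgeR's quasi-likelihood test, and a gene was called at a Benjamini-Hochberg adjusted p of at most 0.05 over all 25210 genes. Libraries with the same replicate number deviated together, and a fit with that number as a block is given where it changed a call. In LacZ cells 3 of the 10 genes were called with bFGF, where 11.6% of all genes were called, and 7 with the block, where the share was 27.3%. With TGFβ 4 were called (36.9% of all genes) and 5 with the block (42%). With IL-1β there were 4 (20.7%) and 7 with the block (33.5%), and with TNFα 4 (21.3%) and 7 with the block (35.5%). The share of AP-1 genes called with TGFβ was thus close to the background. In iCre cells 1 gene was called with bFGF (2.42% of all genes), 3 with TGFβ (37.4%), 5 under IL-1β (16.3%) and 4 under TNFα (27%). With the block these counts were 6 (16.7%), 6 (41.5%), 8 (33.8%) and 6 (36.1%).

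Between iCre and LacZ cells under the same ligand, none of the 10 genes was called without ligand (0.0754% of all genes, 19 in number) or with bFGF (0%). At an unadjusted p of 0.05 there was 1 gene in each, against 14% and 10.3% of all genes, and DESeq2 called 1 in each, *Fosl1* and *Fos*, against 8.88% and 3% of the genes it tested. With the block 4 (14.5% of all genes) and 5 (13.9%) were called. With TGFβ 2 genes were called (8.37%), and 4 with the block (20.8%). With IL-1β 4 were called (16.1%), and 7 with the block (29.5%). With TNFα 5 were called (27.3%), and 5 with the block (32.2%). The interaction, which is the difference between the ligand's effect in iCre and in LacZ cells and uses 16 libraries, called none of the 10 genes for any ligand in the edgeR fit of all 4 replicates without the block, where it called 0% of all genes for bFGF, 4.51% for TGFβ, 7.71% for IL-1β and 16.1% for TNFα. At an unadjusted p of 0.05 there were 1, 1, 4 and 2 AP-1 genes in that order, against 3.03%, 15.2%, 19.7% and 27.5% of all genes, and DESeq2 called 0, 1, 1 and 1, against 0%, 15.3%, 17.5% and 29.9% of the genes it tested. With the block the interaction called 0 for bFGF (0% of all genes), 1 for TGFβ (8.04%), 5 for IL-1β (16.9%) and 4 for TNFα (25.1%). Below, a call without the block is one of the edgeR fit of all 4 replicates. Of the 48 calls of AP-1 genes that the block added to it over the 17 comparisons, 27 were also made with no block once replicate 2 was left out, 15 were made by DESeq2 with no block, and 17 were made in no fit without a block. With no block, none was made without replicate 1 or 3, and without replicate 4 only that of *Atf3* in iCre cells with TGFβ. Replicate 2 stood apart in these same genes, so a pass without it is no independent check. The share of all genes called moved too. In LacZ cells with bFGF it was 11.6%, 18.2% without replicate 2 and 27.3% with the block, and in iCre cells with TNFα 27%, 25.4% and 36.1%. A fall in the number of cells of one type and a fall in RNA per cell cannot be told apart in these bulk samples.

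**Figure D2:**
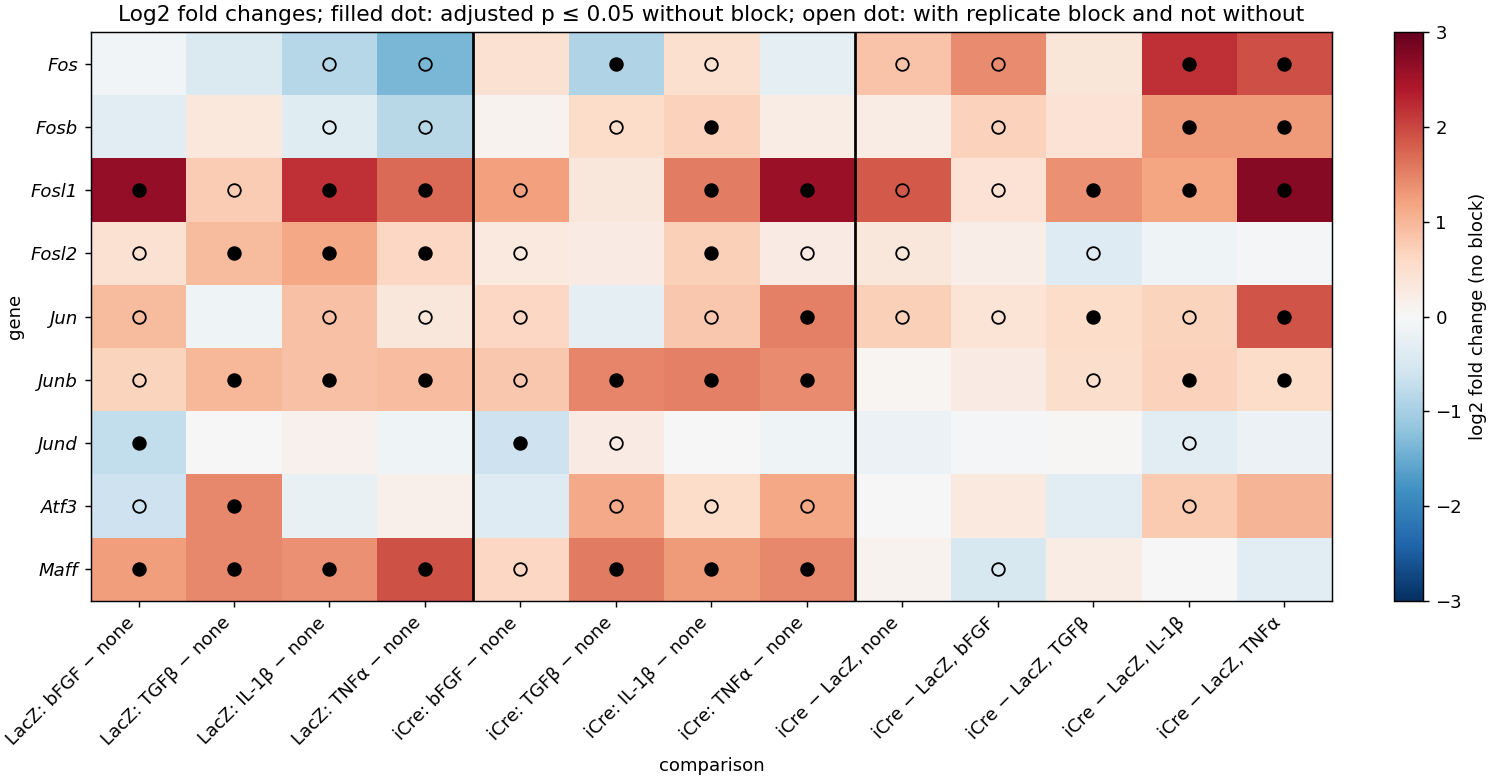
Log2 fold changes of 9 AP-1 genes (rows) in 13 pair comparisons (columns), fitted without the block: 4 ligands in LacZ cells, the same in iCre cells, and iCre minus LacZ under each ligand. Filled dots mark calls without the block and open dots those that the block added, both with all 4 replicates; *Junb* and *Maff* have a filled dot for TGFβ, IL-1β and TNFα in both viruses.

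*Fos* encodes the founding Fos protein. Without ligand, the LacZ libraries held 5.78, 17.4, 5.13 and 4.94 CPM in replicates 1 to 4, and the iCre libraries 15.0, 17.4, 12 and 15.6 CPM. Replicate 2 of LacZ was 3 times or more above the others of its group and level with the iCre libraries, so the groups overlapped. The log2 fold change of 0.85 ± 0.38 (SE) did not pass (adjusted p = 0.356). It passed with the block (1.03 ± 0.19, adjusted p = 0.00129) and without replicate 2 (1.42, adjusted p = 0.00282).

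With IL-1β the LacZ libraries had 3.05, 8.14, 2.67 and 4.21 CPM of *Fos*, against 24.8, 22.3, 20.3 and 15.6 CPM in iCre. All iCre libraries were above all LacZ libraries, a 4.55-fold difference (log2 2.18 ± 0.32, adjusted p = 0.00132). With TNFα LacZ libraries held 1.80, 6.12, 1.82 and 3.03 CPM, and those of iCre cells 16.7, 7.92, 13.3 and 9.95 CPM. These groups did not overlap either, and the difference was 3.82-fold (log2 1.93 ± 0.41, adjusted p = 0.00615). It was lost without replicate 3. The gap was narrowest in replicate 2, at a log2 ratio of 0.37 within the number against 1.72 to 3.22 in the other replicates.

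Relative to unstimulated LacZ cells, the mean of *Fos* went from 8.32 ± 6.08 CPM (SD, n = 4) under IL-1β to 4.52 ± 2.5 CPM and under TNFα to 3.19 ± 2.03 CPM. Neither passed without the block (log2 fold changes -0.85 and -1.37, adjusted p = 0.242 and 0.089), and both passed with it (-0.79, adjusted p = 2.44e-05, and -1.35, adjusted p = 4.59e-07). Both also passed without replicate 2 (-0.67 and -1.27, adjusted p = 0.0385 and 0.00256), and the TNFα change by DESeq2 (-1.36, adjusted p = 0.0279) and in the fit of all 40 libraries (-1.39, adjusted p = 0.0182). In iCre cells the IL-1β value was instead higher than without ligand, at 20.8 ± 3.93 CPM against 15.0 ± 2.21 CPM, which passed with the block (0.49 ± 0.09, adjusted p = 3.78e-06) and by DESeq2 (0.46, adjusted p = 0.0421). The interaction for IL-1β was 1.33 ± 0.54 without the block (adjusted p = 0.173) 1.29 ± 0.34 with it (adjusted p = 0.0117), and 1.17 without replicate 2 (adjusted p = 0.0178). For TNFα it was 1.08 ± 0.60 (adjusted p = 0.269), and 1.12 ± 0.50 with the block (adjusted p = 0.124), though it passed without replicate 2 (1.16, adjusted p = 0.0265). *Fos* was also the one AP-1 gene that fell with TGFβ in iCre cells, to 7.67, 9.88, 6.33 and 7.66 CPM. No library of the TGFβ group reached the unstimulated iCre level (-0.91 ± 0.17, adjusted p = 0.00142).

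With bFGF the iCre libraries had 10.2, 43.7, 15.9 and 12.4 CPM of *Fos* against 5.71, 7.60, 9.76 and 7.69 CPM in LacZ. The iCre libraries were higher throughout, with replicate 2 far above the rest. The difference passed with the block (1.20 ± 0.20, adjusted p = 0.00025) and by DESeq2 (1.41, adjusted p = 0.0435), and edgeR without the block gave 1.42 ± 0.42 (adjusted p = 0.367). Without replicate 2 it was 0.73 (adjusted p = 0.132).

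*Fosb* is another Fos gene of the immediate early class, with a lower level per kilobase than *Fos*. It too was higher in iCre than in LacZ cells with IL-1β and TNFα. With IL-1β, LacZ libraries had 2.48, 5.92, 2.85 and 3.27 CPM and iCre libraries 6.81, 11.7, 7.91 and 8.99 CPM. The groups stood apart (2.42-fold, log2 1.27 ± 0.28, adjusted p = 0.0107). With TNFα the values were 1.73, 4.47, 1.85 and 2.54 CPM against 4.27, 7.37, 6.62 and 7.17 CPM. Replicate 2 of LacZ just exceeded replicate 1 of iCre, and the difference was 2.44-fold (log2 1.28 ± 0.32, adjusted p = 0.0138). Both calls were lost when replicate 3 or replicate 4 was left out. In iCre cells *Fosb* rose with IL-1β (0.69 ± 0.19, adjusted p = 0.0351), a call lost without replicate 1, 3 or 4. In LacZ cells it fell with IL-1β and TNFα with the block (-0.41 and -0.89, adjusted p = 0.0278 and 7.43e-05), and the TNFα change also passed by DESeq2 (-0.82, adjusted p = 0.0404) and without replicate 2 (-1.02, adjusted p = 0.005). The interaction passed with the block for IL-1β (1.07 ± 0.18, adjusted p = 0.000345) and TNFα (1.10 ± 0.23, adjusted p = 0.00223), against adjusted p = 0.101 and 0.0836 without it. Both also passed by DESeq2 (adjusted p = 0.041 and 0.0427) and without replicate 2 (adjusted p = 0.00939 and 0.015). With the block *Fosb* also rose with TGFβ in iCre cells (0.53 ± 0.15, adjusted p = 0.0119, by DESeq2 0.54, adjusted p = 0.0314, and 0.33, adjusted p = 0.0946, with the block once base composition was corrected for), and was higher in iCre than in LacZ cells with bFGF (0.70 ± 0.16, adjusted p = 0.00458).

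*Fosl1* encodes Fra-1, a Fos protein that lacks the activation domain of c-Fos and is itself an AP-1 target. It ranged from 3.30 CPM in a LacZ CTRL library to 167 CPM in an iCre TNFα library. In unstimulated LacZ cells the replicates had 3.30, 11.1, 3.83 and 5.61 CPM. With bFGF they had 26.7, 33.5, 32.8 and 52.7 CPM, with IL-1β 20.9, 25.5, 21.3 and 39.3 CPM, and with TNFα 12, 28.4, 15.8 and 20.6 CPM. All 3 ligand groups lay above the unstimulated libraries. The increases were 6.22-fold with bFGF (log2 2.64 ± 0.38, adjusted p = 0.00293), 4.56-fold with IL-1β (2.19 ± 0.37, adjusted p = 0.00236) and 3.24-fold with TNFα (1.69 ± 0.39, adjusted p = 0.0124). The TNFα call was lost without replicate 3 or 4. With TGFβ the libraries had 11.9, 7.13, 9.78 and 11.1 CPM, which passed with the block (0.90 ± 0.33, adjusted p = 0.0477, against 0.77 ± 0.35, adjusted p = 0.111, without it) and also without replicate 2 (1.38, adjusted p = 0.000282).

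In unstimulated iCre cells *Fosl1* was at 14.2, 29.1, 15.5 and 26.9 CPM. Every iCre library exceeded every LacZ one, and the log2 fold change was 1.84 ± 0.39 (adjusted p = 0.0907), or 1.91 ± 0.12 with the block (adjusted p = 8.54e-08). With TNFα the iCre libraries reached 68.2, 138, 129 and 167 CPM. This was the highest group mean (126 ± 41.7 CPM, SD, n = 4), and it was 6.64-fold above LacZ cells with TNFα (log2 2.73 ± 0.32, adjusted p = 0.000342) and 6.01-fold above unstimulated iCre cells (2.59 ± 0.32, adjusted p = 0.000447). Both calls held with each replicate left out in turn. With IL-1β iCre libraries had 51.7, 49.5, 53.5 and 90.4 CPM, 2.27-fold above LacZ (1.18 ± 0.24, adjusted p = 0.00815, lost without replicate 3) and 2.90-fold above unstimulated iCre cells (1.54 ± 0.28, adjusted p = 0.0048). With TGFβ they had 17.8, 14.5, 29.8 and 44.0 CPM, 2.61-fold above LacZ (1.38 ± 0.32, adjusted p = 0.0271, lost without replicate 3 or 4).

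With bFGF the *Fosl1* ranges overlapped, at 34.4, 28.2, 61.1 and 75.1 CPM in iCre and 26.7 to 52.7 CPM in LacZ cells. The difference of 0.44 ± 0.31 did not pass (adjusted p = 0.614), and with the block it was 0.38 ± 0.12 (adjusted p = 0.0322, and 0.105 with base composition corrected for). The bFGF effect within iCre cells passed with the block (1.19 ± 0.21, adjusted p = 0.000815, against 1.23 ± 0.35, adjusted p = 0.107, without it). It also passed by DESeq2 (1.22, adjusted p = 0.0146), without replicate 2 (1.60, adjusted p = 0.00764) and in the fit of all 40 libraries (1.21, adjusted p = 0.048). The interactions were -1.40 ± 0.54 for bFGF, -0.46 ± 0.55 for TGFβ, -0.66 ± 0.49 for IL-1β and 0.89 ± 0.54 for TNFα, and of these only that for TNFα passed with the block (0.86 ± 0.24, adjusted p = 0.0152). Of the 2033 exonic bases of *Fosl1* (GRCm38 chromosome 19, 5447547 to 5455946, plus strand), 1163 overlap the antisense gene *Ccdc85b*. Whether the counting used strand is not given in the sources used here. *Ccdc85b*, chosen for this position, was higher in iCre than in LacZ cells with TGFβ (log2 0.52), IL-1β (0.66) and TNFα (0.78), less than *Fosl1* in each, and its share in the *Fosl1* counts was not tested.

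*Fosl2*, which encodes the related Fra-2, responded to the ligands in LacZ cells. The unstimulated libraries had 157, 213, 139 and 128 CPM. They had 304, 348, 283 and 272 CPM with TGFβ, 400, 358, 331 and 331 CPM with IL-1β, and 258, 290, 207 and 230 CPM with TNFα. The TGFβ and IL-1β groups lay above the unstimulated one, and the TNFα group overlapped it in part. *Fosl2* rose 1.92-fold with TGFβ (log2 0.94 ± 0.15, adjusted p = 0.000695), 2.25-fold with IL-1β (1.17 ± 0.15, adjusted p = 0.000515) and 1.55-fold with TNFα (0.63 ± 0.16, adjusted p = 0.0195). The TNFα call was lost without replicate 1, 3 or 4. With bFGF the increase passed only with the block (0.43 ± 0.08, adjusted p = 0.000988).

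In iCre cells the *Fosl2* mean was 203 ± 34.0 CPM without ligand, 329 ± 29.3 CPM with IL-1β (log2 0.72 ± 0.12, adjusted p = 0.00364) and 237 ± 55.1 CPM with TGFβ (0.24 ± 0.17, adjusted p = 0.283). With bFGF and TNFα small increases passed with the block only (0.28 and 0.24, adjusted p = 0.0338 and 0.0381), and that with TNFα was 0.06 with base composition corrected for. The iCre to LacZ differences of *Fosl2* were -0.38 with TGFβ, -0.13 under IL-1β and -0.06 under TNFα on the log2 scale, and none passed without the block. The TGFβ value passed with the block (-0.40 ± 0.08, adjusted p = 0.000958) and without replicate 2 (-0.51, adjusted p = 0.00547). So did the interactions for TGFβ (-0.76 ± 0.12, adjusted p = 0.00045) and IL-1β (-0.48 ± 0.14, adjusted p = 0.0258), which without the block had adjusted p = 0.106 and 0.198, and without replicate 2 passed too (-0.86 and -0.57, adjusted p = 0.00247 and 0.0499). Without ligand *Fosl2* was higher in iCre cells with the block (0.35 ± 0.07, adjusted p = 0.00434).

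*Jun* encodes c-Jun, which binds as a homodimer or with a Fos protein and acts on its own promoter. The annotated gene lies on GRCm38 chromosome 4, 95049034 to 95052222, minus strand. Its RefSeq promoter window of 300 bases, from 250 before to 50 after the start, is printed because it holds a TGACATCA element, an AP-1-type site (capitals, first base at position -45 from the start), as found in 3.62% of 32851 such windows. The match is a description of the letters only.

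Jun promoter, GRCm38.p6 chr4:95052173-95052472, minus strand: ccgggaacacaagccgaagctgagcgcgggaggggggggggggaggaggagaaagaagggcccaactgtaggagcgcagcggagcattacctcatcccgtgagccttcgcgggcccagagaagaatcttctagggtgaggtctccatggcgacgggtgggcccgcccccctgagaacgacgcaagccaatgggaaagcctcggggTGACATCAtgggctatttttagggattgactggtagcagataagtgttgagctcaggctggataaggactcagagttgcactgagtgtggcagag

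In LacZ cells *Jun* had 27.9, 93.9, 33.0 and 38.2 CPM without ligand, 59.9, 132, 76.4 and 93.6 CPM with bFGF, 66.8, 125, 79.1 and 75.7 CPM under IL-1β, and under TNFα 46.6, 102, 43.8 and 50.1 CPM. Replicate 2 was the highest in each of these groups, and the ranges overlapped. None of the ligands passed without the block (log2 0.94, 0.87 and 0.34, adjusted p = 0.15, 0.115 and 0.6), while all 3 passed with it, at 1.04 ± 0.11 for bFGF (adjusted p = 2.66e-06), 0.99 ± 0.10 for IL-1β (adjusted p = 4.08e-10) and 0.41 ± 0.08 for TNFα (adjusted p = 0.000382). Without replicate 2 all 3 passed with no block (1.21, 1.16 and 0.50, adjusted p = 0.000744, 6.21e-05 and 0.00981). With TGFβ the libraries had 46.7, 45.1, 44.2 and 37.7 CPM. The change was -0.12 ± 0.32 with all 4 replicates (adjusted p = 0.81) and turned to 0.39 without replicate 2 (adjusted p = 0.041).

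In iCre cells with TNFα, *Jun* reached 155, 299, 206 and 229 CPM. No LacZ library with TNFα exceeded 102 CPM, and the difference was 3.71-fold (log2 1.89 ± 0.30, adjusted p = 0.00137), with each replicate number showing it (within-number log2 ratios 1.55 to 2.23). Against unstimulated iCre cells, at 51.5, 140, 59.4 and 67.3 CPM, the increase was 2.86-fold (1.51 ± 0.32, adjusted p = 0.00614, lost without replicate 4). With TGFβ the iCre libraries had 75.3, 63.5, 57.3 and 65.7 CPM, all above the LacZ ones (1.48-fold, log2 0.56 ± 0.10, adjusted p = 0.00797, lost without replicate 4). With IL-1β they had 119, 220, 109 and 104 CPM and overlapped LacZ (0.66 ± 0.26, adjusted p = 0.115), but the block fit passed (0.63 ± 0.08, adjusted p = 6.84e-06).

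Without ligand and with bFGF, *Jun* was also higher in the iCre library of every replicate number, with log2 ratios of 0.58 to 0.89 and of 0.23 to 0.64. Both passed with the block (0.77 ± 0.07, adjusted p = 1.31e-06, and 0.45 ± 0.08, adjusted p = 0.000328) against adjusted p = 0.472 and 0.571 without it, and the former also without replicate 2 (0.84, adjusted p = 0.0137). The ligand effects within iCre cells with bFGF and IL-1β passed with the block (0.70 and 0.86, adjusted p = 0.00029 and 3.5e-21) and without replicate 2 (0.90 and 0.92, adjusted p = 0.00627 and 0.000515). The interaction for TNFα was 1.17 ± 0.56 (adjusted p = 0.194), 1.19 ± 0.18 with the block (adjusted p = 0.000157), and 1.20 without replicate 2 (adjusted p = 0.00233). For IL-1β it was -0.06 ± 0.54, and -0.13 ± 0.16 with the block (adjusted p = 0.683). *Junos*, an antisense RNA that shares 232 exonic bases with *Jun* and was chosen for that reason, had a log2 fold change of 1.32 in the same iCre to LacZ comparison with TNFα (adjusted p = 0.00256), and its part in the *Jun* counts was not tested.

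**Figure D3:**
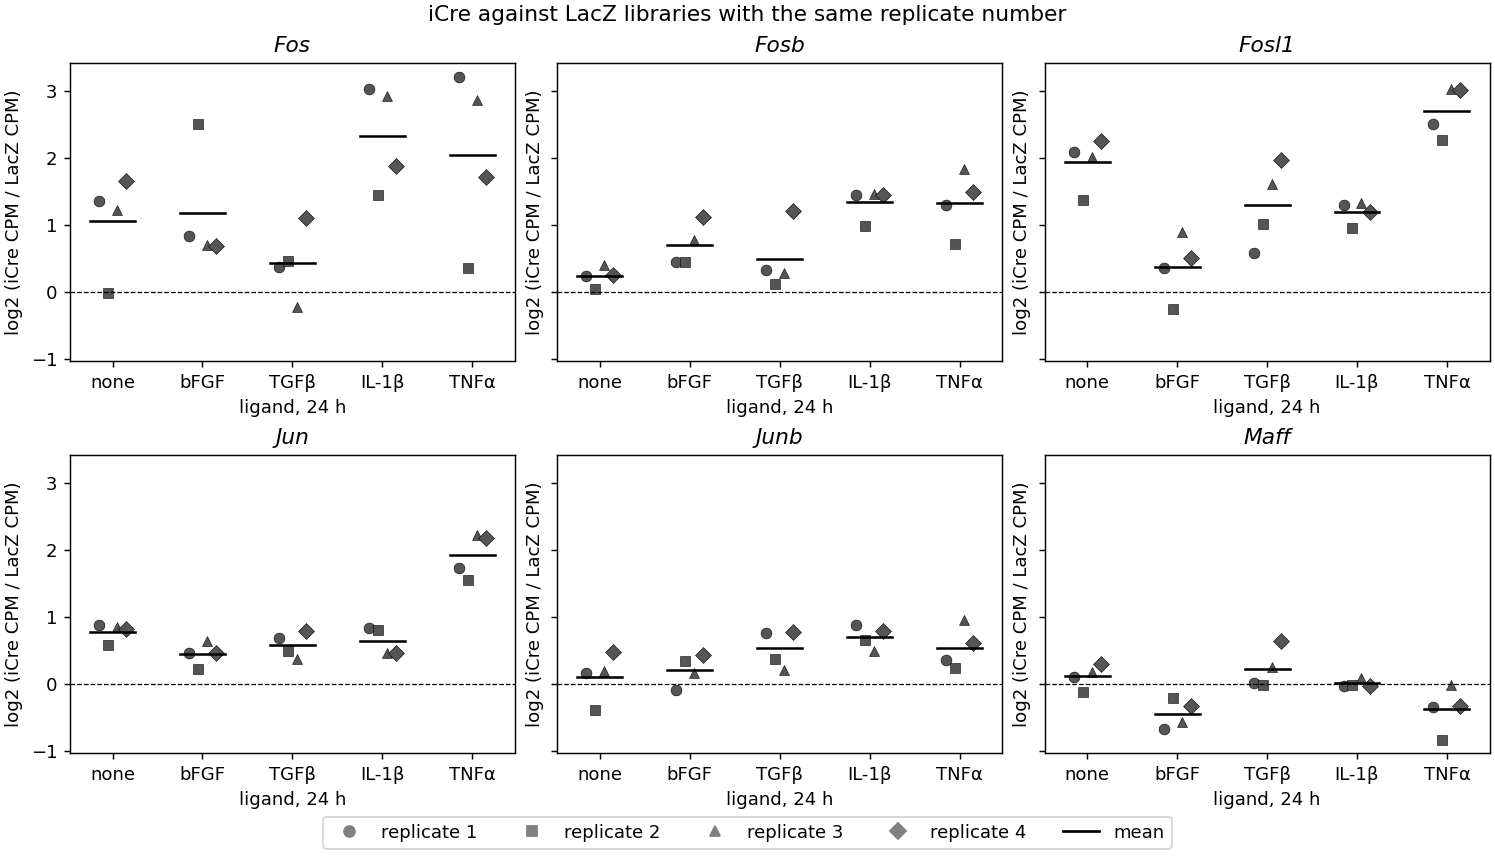
Log2 ratio of the iCre to the LacZ library with the same replicate number for 6 AP-1 genes under each ligand, with a marker shape for each number and a bar at the mean of 4; the dashed line marks no difference. *Fosl1* and *Jun* with TNFα lay between 1.55 and 3.03 in all 4 numbers, while *Maff* with IL-1β lay between -0.02 and 0.10.

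*Junb* encodes a Jun protein that activates more weakly than c-Jun and can oppose it. In LacZ cells it had 65.0, 115, 66.1 and 65.7 CPM without ligand. It had 132, 137, 178 and 167 CPM with TGFβ, 132, 144, 145 and 143 CPM with IL-1β, and 148, 193, 120 and 128 CPM with TNFα. All 3 ligand groups lay above all 4 unstimulated libraries. The increases were 2-fold with TGFβ (log2 1.00 ± 0.18, adjusted p = 0.00166), 1.83-fold with IL-1β (0.87 ± 0.17, adjusted p = 0.00476) and 1.90-fold with TNFα (0.92 ± 0.21, adjusted p = 0.0114). The IL-1β call was lost without replicate 3 and the TNFα call without replicate 1, 3 or 4.

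The increases of *Junb* in iCre cells came from a like starting level. The unstimulated iCre libraries had 73.1, 87.7, 75.7 and 91.8 CPM (log2 0.07 ± 0.18 against LacZ, adjusted p = 0.909). With TGFβ they had 225, 178, 206 and 286 CPM, with IL-1β 244, 228, 206 and 249 CPM, and with TNFα 191, 229, 234 and 197 CPM. *Junb* thus rose 2.76-fold (log2 1.47 ± 0.15, adjusted p = 2.68e-05), 2.86-fold (1.52 ± 0.11, adjusted p = 5.26e-05) and 2.65-fold (1.41 ± 0.11, adjusted p = 0.000124), and these calls held with each replicate left out. Against LacZ cells it was 1.63-fold higher with IL-1β (0.70 ± 0.09, adjusted p = 0.00052) and 1.46-fold higher with TNFα (0.55 ± 0.15, adjusted p = 0.0224, with overlapping ranges, lost without replicate 3 or 4). With TGFβ the difference passed with the block (0.50 ± 0.09, adjusted p = 0.000455, against 0.52 ± 0.15, adjusted p = 0.0693, without it). It also passed by DESeq2 (0.51, adjusted p = 0.0172), without replicate 2 (0.53, adjusted p = 0.0197) and in the fit of all 40 libraries (0.55, adjusted p = 0.0419). The interaction for IL-1β was 0.63 ± 0.21 (adjusted p = 0.0826), and 0.62 ± 0.17 with the block (adjusted p = 0.015). With bFGF *Junb* rose with the block in both viruses (0.68 and 0.77, adjusted p = 7.92e-06 and 3.65e-05), and also by DESeq2 (0.64 and 0.79, adjusted p = 0.0279 and 0.00318) and without replicate 2 (0.72 and 0.63, adjusted p = 0.000637 and 0.015).

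*Jund*, the Jun gene that is expressed constitutively in many cells, fell with bFGF in both viruses. In LacZ cells it went from 183, 169, 198 and 187 CPM to 124, 110, 121 and 82.3 CPM. In iCre cells it went from 179, 136, 185 and 156 CPM to 109, 98.5, 105 and 107 CPM. Neither pair of groups overlapped, and the levels fell 1.66-fold (log2 -0.74 ± 0.13, adjusted p = 0.00825, lost without replicate 3) and 1.55-fold (-0.63 ± 0.11, adjusted p = 0.0225, lost without replicate 1, 3 or 4). With the other ligands the LacZ means were 185 CPM for TGFβ, 202 CPM for IL-1β and 168 CPM for TNFα, and none passed without or with the block. With the block and a correction for base composition the IL-1β value was called higher in LacZ cells (0.24, adjusted p = 0.0118), and in iCre cells *Jund* was called lower with IL-1β (-0.23, adjusted p = 0.00809) and TNFα (-0.27, adjusted p = 0.0132). With the block *Jund* rose slightly with TGFβ in iCre cells (0.25 ± 0.09, adjusted p = 0.0398, and 0.08 with base composition corrected for) and was lower in iCre than in LacZ cells with IL-1β (-0.37 ± 0.08, adjusted p = 0.00198, against -0.35 ± 0.13, adjusted p = 0.0877). The exons of *Jund* share 877 of 1668 bases with the antisense gene *Gm11175*, and those of *Junb* share 173 with *Prdx2*.

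*Atf3* encodes a stress-induced factor that binds as a homodimer or with Jun proteins and often represses. In LacZ cells it had 2.95, 2.35, 2.61 and 5.98 CPM without ligand and 7.09, 16.8, 7.91 and 5.64 CPM with TGFβ. Replicate 4 was the highest unstimulated library and exceeded the TGFβ library of the same number, so the groups overlapped. The increase was 2.73-fold (log2 1.45 ± 0.40, adjusted p = 0.0157) and was lost without replicate 1 or 3. Without replicate 2 it was 0.86 (adjusted p = 0.0412). In iCre cells it had 2.36, 1.78, 2.23 and 7.79 CPM without ligand and 7.71, 5.25, 7.64 and 10.2 CPM with TGFβ, which passed with the block (1.35 ± 0.23, adjusted p = 0.000317, against 1.14 ± 0.45, adjusted p = 0.0698, without it). It also passed by DESeq2 (1.13, adjusted p = 0.0306) and without replicate 4 (1.72, adjusted p = 0.00155).

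With the block *Atf3* also rose in iCre cells with IL-1β (0.72 ± 0.15, adjusted p = 3.31e-05) and TNFα (1.22 ± 0.22, adjusted p = 0.00172), and fell in LacZ cells with bFGF (-0.72 ± 0.19, adjusted p = 0.00949). In LacZ cells the block gave -0.18 ± 0.16 with IL-1β (adjusted p = 0.485) and 0.09 ± 0.16 with TNFα (adjusted p = 0.729). The interactions passed with the block for both, at 0.86 ± 0.28 (adjusted p = 0.0399) and 1.12 ± 0.38 (adjusted p = 0.0423), and had adjusted p = 0.547 and 0.463 without it. Against LacZ cells with IL-1β, *Atf3* in iCre cells was higher with the block (0.75 ± 0.16, adjusted p = 0.00111).

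*Maff* encodes a small Maf protein, which has a leucine zipper but no activation domain of its own. It was raised by every ligand in LacZ cells. The unstimulated libraries were close together, at 16.5, 19.7, 17.1 and 15.5 CPM, and TNFα brought them to 76.1, 62.3, 53.5 and 63.6 CPM. No ranges overlapped, and the increase was 3.72-fold (log2 1.90 ± 0.12, adjusted p = 8.69e-06). With TGFβ the libraries had 54.1, 36.0, 48.9 and 44.0 CPM (2.70-fold, 1.43 ± 0.13, adjusted p = 2.43e-05), and with IL-1β 54.4, 30.2, 42.9 and 49.7 CPM (2.6-fold, 1.38 ± 0.17, adjusted p = 0.000397). These 3 calls held with each replicate left out. With bFGF they had 56.1, 18.5, 45.1 and 41.4 CPM. Replicate 2 did not leave the unstimulated range, and the call (1.25 ± 0.27, adjusted p = 0.0168) was lost without replicate 1, 3 or 4.

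In iCre cells *Maff* was at 17.8, 18.2, 19.3 and 19.2 CPM without ligand. It had 54.9, 35.7, 58.7 and 69.1 CPM with TGFβ, 53.8, 29.9, 46.1 and 48.9 CPM under IL-1β, and under TNFα 59.9, 35.0, 53.2 and 50.8 CPM. All of these were above the unstimulated libraries, with increases of 2.97-fold (log2 1.57 ± 0.17, adjusted p = 4.87e-05), 2.43-fold (1.28 ± 0.16, adjusted p = 0.00103) and 2.73-fold (1.45 ± 0.15, adjusted p = 0.00025). The bFGF increase passed with the block (0.57 ± 0.14, adjusted p = 0.0109) and without replicate 2 (0.81, adjusted p = 0.000685).

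No difference of *Maff* between iCre and LacZ cells passed without the block. The log2 values were 0.11 without ligand, -0.49 with bFGF, 0.23 with TGFβ, -0.00 under IL-1β and -0.34 under TNFα. With the block the bFGF value passed (-0.45 ± 0.09, adjusted p = 0.00109). For IL-1β the block gave -0.00 ± 0.08 (adjusted p = 1).

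The *Maff* gene lies on GRCm38 chromosome 15, 79346621 to 79359076, plus strand, and has 3 RefSeq promoter windows. The downstream ones are printed because both hold elements of the family searched for. The first holds TGACGTCA, the cyclic AMP response element (position -29, as in 1.79% of all windows). The second holds TGACATCA (position -45) and an NF-κB site (position -70, as in 4.51% of all windows). The capitals mark these matches.

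Maff promoter, GRCm38.p6 chr15:79347270-79347569, plus strand: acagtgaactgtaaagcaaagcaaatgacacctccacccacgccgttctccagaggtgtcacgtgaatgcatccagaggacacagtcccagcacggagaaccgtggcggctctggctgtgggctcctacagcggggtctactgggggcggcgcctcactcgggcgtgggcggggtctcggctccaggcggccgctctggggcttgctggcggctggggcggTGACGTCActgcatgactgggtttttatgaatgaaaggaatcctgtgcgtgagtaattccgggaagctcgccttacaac
Maff promoter, GRCm38.p6 chr15:79348152-79348451, plus strand: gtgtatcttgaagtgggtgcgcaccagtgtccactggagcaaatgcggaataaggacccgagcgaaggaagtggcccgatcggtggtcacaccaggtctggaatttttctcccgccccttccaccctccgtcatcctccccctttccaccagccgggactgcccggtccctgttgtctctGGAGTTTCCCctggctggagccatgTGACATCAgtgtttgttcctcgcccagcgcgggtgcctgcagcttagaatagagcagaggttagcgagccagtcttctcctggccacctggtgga

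Of the 10 genes, 9 were matched to a window in the RefSeq table used, and *Fosl1* was not. Both strands were searched for TGACGTCA, TGACATCA, TGANTCA (7.81% of all windows), the CArG box (1.63%) and the NF-κB site. *Fos*, *Fosb* and *Fosl2* had NF-κB matches, which for *Fosl2* overlap each other, at positions -214, -188 and -182. None of the 9 genes had TGANTCA or a CArG box within these bases, and *Junb*, *Jund*, *Atf3* and *Batf3* had no match to any of the letters searched. The window of *Jund* is set on a start 1210 bases before the GENCODE start of the gene, so it does not hold the bases there, and those of *Fosl2*, *Batf3* and *Atf3* are set on starts 671, 567 and 34706 bases after it. Nothing was measured at these promoters.

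The GC content of the AP-1 exons matters for the iCre to LacZ differences with TGFβ, IL-1β and TNFα, because the GC slopes differed between those libraries. It matters likewise for the effects of these ligands within iCre cells and for the interactions. The block fit was therefore repeated with a correction for GC. Within iCre cells with IL-1β the correction moved *Fosl1* from 1.56 to 1.35 and *Fosb* from 0.68 to 0.47, and both still passed. With TNFα, *Fos* (1.85 ± 0.43, adjusted p = 0.0125), *Fosb* (1.08 ± 0.20, adjusted p = 0.00387), *Fosl1* (2.43 ± 0.12, adjusted p = 2.33e-05) and *Jun* (1.68 ± 0.12, adjusted p = 6.23e-05) passed with the correction. With IL-1β, *Fos* (2.08), *Fosb* (1.09), *Fosl1* (0.91), *Jun* (0.41), *Junb* (0.37) and *Atf3* (0.57) passed, and with TGFβ *Fosl1* (0.98) and *Jun* (0.32) did. *Junb*, whose exons hold 62.6% GC, changed from 0.57 ± 0.12 to 0.25 ± 0.10 with TNFα (adjusted p = 0.0868) and from 0.50 ± 0.09 to 0.18 ± 0.09 with TGFβ (adjusted p = 0.289), and so lost both calls.

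*Jund*, with the highest GC content at 67.1%, was lower in iCre cells with the correction, by log2 -0.32 under TGFβ, -0.70 under IL-1β and -0.50 under TNFα (adjusted p = 0.024, 2.62e-06 and 0.00237). It was also lower without ligand (-0.23, adjusted p = 0.0217). *Maff* was lower with IL-1β (-0.26, adjusted p = 0.0165) and TNFα (-0.65, adjusted p = 0.00314), and *Fosl2* with TGFβ (-0.59) and IL-1β (-0.32). The interactions for *Fos* and *Fosb* with IL-1β (1.13 and 0.88, adjusted p = 0.0357 and 0.00233) and for *Fosb* and *Jun* with TNFα (0.85 and 0.95, adjusted p = 0.0105 and 0.000989) also passed with the correction. So did negative interactions for *Fosl2* with TGFβ, IL-1β and TNFα (-0.93, -0.65 and -0.61, adjusted p = 0.000449, 0.00601 and 0.00599), for *Jund* with IL-1β (-0.48, adjusted p = 0.00333) and for *Maff* with TNFα (-0.71, adjusted p = 0.0113), of which those for *Jund*, *Maff* and *Fosl2* with TNFα did not pass with the block alone. Those for *Junb* and *Atf3* with IL-1β and for *Fosl1* and *Atf3* with TNFα did not (adjusted p = 0.282, 0.122, 0.0875 and 0.104). Which of the scales is nearer to the RNA in the cells was not tested.

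**Figure D4:**
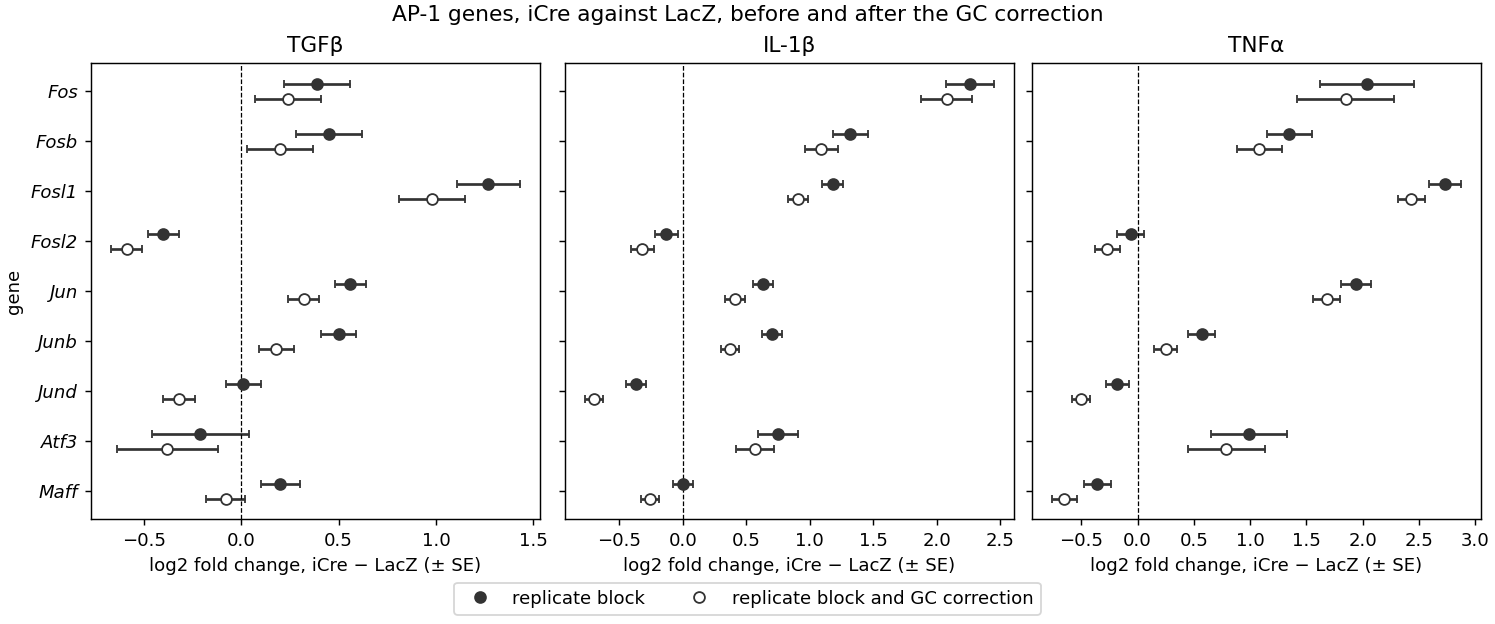
Log2 fold change of iCre minus LacZ (± SE) for 9 AP-1 genes with TGFβ, IL-1β and TNFα, fitted with the replicate block (filled) and with the block and a correction for GC content (open). Every open point lies to the left of its filled one; *Fosl1* with TNFα changed from 2.73 to 2.43 and *Jund* with IL-1β from -0.37 to -0.70.

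The other genes of the pathway were described by lists chosen by textbook role. Their counts are of edgeR without the block unless the block is named, and the shares in parentheses are of all genes called in the same comparison and fit. The GC correction was not applied to the counts and values of these lists. A list of 15 AP-1 target genes had 12 members that rose and 1 that fell in LacZ cells with IL-1β (20.7%), 10 and 0 with TNFα (21.3%), 7 and 1 with bFGF (11.6%), and 5 and 2 with TGFβ (36.9%). The median log2 fold change was 2.53 with IL-1β, against -0.10 over all genes, 1.37 with TNFα, 1.26 with bFGF, and 0.11 with TGFβ, against -0.17 over all genes. *Il6* rose by 7.04 and *Ccl2*, a monocyte chemokine, by 6.87 (log2) in LacZ cells under IL-1β. In iCre cells the counts were 10 and 0 with IL-1β (16.3%), 12 and 0 with TNFα (27%), 5 and 0 with bFGF (2.42%) and 5 and 1 with TGFβ (37.4%).

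Between iCre and LacZ cells the targets split. With IL-1β 2 of the 15 were higher and 5 lower (16.1%), with a median of 0.05. The cytokine *Il6* averaged 318 CPM in LacZ cells against 57.0 CPM in iCre cells (log2 -2.5 ± 0.48, adjusted p = 0.00559), *Ccl2* at 1776 and 504 CPM (-1.84), and the matrix metalloproteinase genes *Mmp3* at 7428 and 1378 CPM (-2.45) and *Mmp13* at 23.5 and 5.95 CPM (-1.99). With TNFα 7 were higher and 1 lower (27.3%), with a median of 0.83. *Mmp10* averaged 1.17 CPM in LacZ cells against 19.3 CPM in iCre cells (4.06 ± 1.18, adjusted p = 0.0286), *Plaur*, the urokinase receptor, at 12.6 and 83.9 CPM (2.76), *Hmox1* at 130 and 508 CPM (1.99) and *Mmp9* at 18.2 and 56.4 CPM (1.65). The genes named for IL-1β also had lower means in iCre cells with TNFα. *Il6* was at 18.5 and 14.8 CPM, *Ccl2* at 1969 and 808, *Mmp3* at 2948 and 1370 and *Mmp13* at 8.22 and 6.74. Those named for TNFα likewise had higher iCre means with IL-1β, for *Mmp10* only 2.36 against 2.26 CPM. Without ligand, with bFGF and with TGFβ none of the 15 was called without the block (0.0754%, 0% and 8.37%), and with it 7 were higher and 2 lower (14.5%), 3 and 6 (13.9%), and 6 and 2 (20.8%). With IL-1β the block gave 5 higher and 6 lower (29.5%). The interaction without the block called 0 higher and 4 lower with IL-1β (7.71%), 3 and 1 with TNFα (16.1%), and none with bFGF (0%) or TGFβ (4.51%). With the block it called 2 and 6 with IL-1β (16.9%), 5 and 1 with TNFα (25.1%), 1 and 1 with TGFβ (8.04%) and none with bFGF (0%). Within LacZ and within iCre cells, bFGF gave 12 higher and 1 lower with the block (27.3% and 16.7%). The other ligands gave 5 and 4 with TGFβ (42%), 12 and 2 with IL-1β (33.5%) and 13 and 1 with TNFα (35.5%) in LacZ cells with the block, and 5 and 3 (41.5%), 14 and 0 (33.8%) and 13 and 0 (36.1%) in iCre cells. Between the viruses it gave 8 and 2 with TNFα (32.2%).

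A list of 15 other immediate early transcription factor genes had 10 members above and 0 below the LacZ level in iCre cells with IL-1β (16.1%), with a median of 1.31, and 11 and 1 with TNFα (27.3%), with a median of 1.23. *Egr3* averaged 7.40 CPM in LacZ cells against 50 CPM in iCre cells with IL-1β (2.74) and at 3.13 and 32.4 CPM with TNFα (3.39), and *Nr4a1*, an orphan nuclear receptor gene, at 21 and 116 CPM (2.45) and at 11.4 and 113 CPM (3.32). With TGFβ 4 were higher and 0 lower (8.37%), and without ligand and with bFGF none was called without the block (0.0754% and 0%), against 11 and 5 higher with it (14.5% and 13.9%). The interaction without the block called 3 higher and 0 lower with IL-1β (7.71%), 4 and 1 with TNFα (16.1%), and none with bFGF (0%) or TGFβ (4.51%). In LacZ cells the ligands gave 3 higher and 0 lower with bFGF (11.6%), 6 and 0 with TGFβ (36.9%), 3 and 1 with IL-1β (20.7%) and 4 and 1 with TNFα (21.3%). *Myc* rose with all 4, by 1.53, 2.51, 1.66 and 1.68. In iCre cells the counts were 1 and 1 (2.42%), 5 and 3 (37.4%), 8 and 1 (16.3%), and 7 and 1 (27%). The block gave LacZ counts of 8 and 0 with bFGF (27.3%), 8 and 0 with TGFβ (42%), 4 and 4 with IL-1β (33.5%) and 5 and 7 with TNFα (35.5%). In iCre cells it gave 5 and 2 with bFGF (16.7%), 6 and 4 with TGFβ (41.5%), 12 and 1 with IL-1β (33.8%) and 7 and 1 with TNFα (36.1%). Between iCre and LacZ cells it gave 9 and 1 with TGFβ (20.8%), 13 and 1 with IL-1β (29.5%) and 12 and 1 with TNFα (32.2%). The interaction with the block called 0 and 2 with TGFβ (8.04%), 8 and 1 with IL-1β (16.9%), 7 and 1 with TNFα (25.1%) and none with bFGF (0%).

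Of 11 other AP-1 and Maf genes of the same zipper class, 1 was higher and 1 lower with bFGF in LacZ cells (11.6%), 3 and 4 with TGFβ (36.9%), 3 and 2 with IL-1β (20.7%) and 4 and 1 with TNFα (21.3%). In iCre cells these counts were 0 and 0 (2.42%), 3 and 4 (37.4%), 3 and 4 (16.3%), and 2 and 4 (27%). The block gave 2 and 4 (27.3%), 3 and 4 (42%), 4 and 2 (33.5%), and 4 and 4 (35.5%) in LacZ cells, and 2 and 3 (16.7%), 3 and 5 (41.5%), 3 and 4 (33.8%), and 2 and 4 (36.1%) in iCre cells. *Batf2*, an interferon-linked relative of *Batf3*, averaged 4.79 CPM in LacZ cells against 0.543 CPM in iCre cells with TNFα (-3.11 ± 0.39, adjusted p = 0.000482). *Batf* was at 1.43 and 0.282 CPM with IL-1β (-2.36 ± 0.32, adjusted p = 0.000828). Between iCre and LacZ cells 0 were higher and 2 lower with TGFβ (8.37%), 0 and 2 with IL-1β (16.1%, against 18.2% of the list) and 1 and 5 with TNFα (27.3%). Without ligand and with bFGF none was called without the block (0.0754% and 0%). The interaction for *Batf2* with TNFα was -2.82 ± 0.54 (adjusted p = 0.00206). It was 1 of 3 genes of this list with a lower interaction for TNFα (16.1%), beside 2 for IL-1β (7.71%), 1 for TGFβ (4.51%) and none for bFGF (0%), all without the block. With the block the iCre to LacZ counts were 2 and 1 without ligand (14.5%), 2 and 0 with bFGF (13.9%), 3 and 2 with TGFβ (20.8%), 2 and 6 with IL-1β (29.5%) and 1 and 5 with TNFα (32.2%). The interaction with the block called 1 and 3 for TGFβ (8.04%), 0 and 3 for IL-1β (16.9%), 0 and 6 for TNFα (25.1%) and none for bFGF (0%).

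Of 17 MAP kinase and MAP kinase kinase genes, 4 were higher and 0 lower in LacZ cells with bFGF (11.6%), 7 and 2 with TGFβ (36.9%), 5 and 1 with IL-1β (20.7%) and 4 and 0 with TNFα (21.3%, against 23.5% of the list). In iCre cells these were 0 and 0 (2.42%), 6 and 2 (37.4%), 4 and 1 (16.3%), and 6 and 2 (27%). With the block they were 4 and 1 (27.3%), 7 and 3 (42%), 6 and 1 (33.5%), and 5 and 0 (35.5%) in LacZ cells, and 3 and 0 (16.7%), 6 and 3 (41.5%), 7 and 1 (33.8%), and 9 and 2 (36.1%) in iCre cells. *Mapk11*, which encodes p38β, rose in LacZ cells with all 4 ligands, by 0.97, 1.06, 0.86 and 1.69. *Map2k6*, which encodes a kinase of p38, fell with TGFβ from a mean of 7.77 CPM to 0.63 CPM in LacZ cells (log2 -3.60 ± 0.31, adjusted p = 1.5e-05) and by 3.10 in iCre cells, and was chosen after its values were seen. *Mapk8*, which encodes JNK1, was lower in iCre than in LacZ cells with TGFβ (-0.55), IL-1β (-0.80) and TNFα (-0.63), from means of 33.4, 29.1 and 25.2 CPM to 23.3, 16.9 and 16 CPM. Between the viruses 1 was higher and 2 lower with TGFβ (8.37%), 3 and 4 with IL-1β (16.1%) and 5 and 2 with TNFα (27.3%), and none was called without the block in unstimulated cells (0.0754%) or with bFGF (0%). The interaction without the block called 0 and 1 with TGFβ (4.51%), 0 and 3 with IL-1β (7.71%), 3 and 2 with TNFα (16.1%) and none with bFGF (0%). With the block the iCre to LacZ counts were 1 and 0 without ligand (14.5%), 1 and 1 with bFGF (13.9%), 6 and 4 with TGFβ (20.8%), 6 and 6 with IL-1β (29.5%) and 6 and 1 with TNFα (32.2%). In the interaction the block gave 0 and 1 with TGFβ (8.04%), 1 and 3 with IL-1β (16.9%), 6 and 2 with TNFα (25.1%) and none with bFGF (0%).

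Ordered by group mean, the AP-1 genes had different leading groups. *Jun* and *Fosl1* were highest in iCre cells with TNFα, *Fos* and *Fosb* in iCre cells with IL-1β, *Junb* in iCre cells with IL-1β, *Fosl2* and *Jund* in LacZ cells with IL-1β, *Maff* in LacZ cells with TNFα and *Atf3* in LacZ cells with TGFβ. Most neighbours in these orders did not differ beyond their spread. The ranges of neighbouring groups overlapped in all 9 steps for 8 of the genes, in all but 1 for *Fosl1* and in all but 2 for *Junb*. The lowest group of *Fos* and *Fosb* was LacZ with TNFα, that of *Fosl1*, *Fosl2*, *Junb* and *Maff* unstimulated LacZ, and that of *Jun* LacZ with TGFβ.

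The likeness of patterns was measured as Pearson's r between log2 group means over the 10 groups, for the 13071 genes averaging 1 CPM or more. Groups share replicate numbers and base composition, so r is a description. *Fos* was most like *Egr3* (r = 0.964) and *Egr1* (0.96), both immediate early zinc finger genes. *Fosl1* was most like *Mvb12b* (0.972) and *Jun* (0.966), and *Jun* like *Grem1*, a BMP antagonist gene (0.969), and *Mvb12b* (0.967). The first in rank for the others were *Prss12* for *Fosb* (0.981), *Slc39a14* for *Fosl2* (0.92), *Ears2* for *Junb* (0.977), *Sidt2* for *Jund* (0.927), *Clpb* for *Atf3* (0.954) and *Ddx24* for *Maff* (0.968). Within the family the closest pairs after *Fosl1* and *Jun* were *Junb* and *Maff* (0.817) and *Fos* and *Fosb* (0.769).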

How the data were processed

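Gene counts of 40 libraries (10 groups of 4) were used as deposited. The authors made these raw counts by aligning reads with STAR to mm10 (GRCm38) and counting with HTSeq 0.10.0, after FastQC 0.10.1, per the submitters' processing notes. The library kit is named differently in the labels (NEBNext Ultra II) and the methods (TruSeq Stranded), and neither HTSeq's strand option nor its annotation release is given in the sources used here. Of 55414 identifiers, 52081 were matched to GENCODE M21, which gave names, positions, exon lengths and GC content.

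Genes with at least 10 counts over the 40 libraries were tested (25210; 22066 had no count). CPM used TMM-scaled totals, except that marker sums and the worth of 3 counts used raw totals. Total counts were 25360947 to 66160732 per library, and 3 counts were worth 0.0453 to 0.118 CPM, which covers counting error only. Pairs of groups (8 libraries) and interactions (16 libraries) were tested with edgeR 4.0.16 (quasi-likelihood, TMM, R 4.3.3), with Benjamini-Hochberg adjustment over all genes and a threshold of 0.05, giving 17 comparisons. On simulated data with 200 changed genes among 25210, 174 were recovered with 16 false calls for TNFα in LacZ cells, and 135 with 6 for its interaction.

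The labels number the replicates alike in each group. Deviations from the group means correlated in all 52 of 52 pairs of same-numbered libraries from groups compared (r = 0.361 to 0.877 over 10774 genes averaging 5 CPM or more; over all libraries of different groups the mean was 0.575 for the same number and -0.159 for other numbers), so the numbers were taken to pair the samples. A replicate block was fitted as an alternative, alone and with a GC correction. Other alternatives were DESeq2 1.42.0 (the study's tool), RLE scaling, 2 other filters, a fit of all 40 libraries, raw totals and leaving out each replicate number.

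The genes and lists were chosen with earlier results of these data known. The genes named were all 10 AP-1 genes, up to 4 genes per list and comparison with the largest change past the threshold, the 3 genes most like each AP-1 gene over group means among those averaging 1 CPM or more (of which up to 2 are printed), and *Map3k7*. Genes that overlap an AP-1 gene were added for their position, and *Egr3*, *Nr4a1*, *Myc*, *Mapk8* and *Mapk11* were picked from the named genes to be followed across comparisons after their values were seen. Some genes of the lists are not reported here by name. Promoter windows came from RefSeq (GRCm38.p6). Scripts ran in Python 3.11.15 with pandas 2.3.3, numpy 2.4.6 and matplotlib 3.10.9.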

Additional observations from a re-analysis of the deposited data

Results flagged for a closer look

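Of 100 groups of 4 libraries (10 genes in 10 groups), 13 had a library whose gap to its nearest neighbour was a larger part of the group's range than Dixon's 95% critical value, where chance gives about 1 in 20. Replicate 2 was the library in 7 of the 13. It was the highest for *Fos* in LacZ CTRL (17.4 CPM, next 5.78) and in iCre with bFGF (43.7 CPM, next 15.9). The same held for *Jun* in LacZ CTRL (93.9 CPM, next 38.2), LacZ with TNFα (102 CPM, next 50.1) and iCre with IL-1β (220 CPM, next 119), and for *Junb* in LacZ CTRL (115 CPM, next 66.1). For *Batf3* in iCre with TGFβ it held 0.259 CPM against at most 0.0277 CPM, a few counts. Replicate 4 was the highest for *Atf3* in LacZ CTRL (5.98 CPM, next 2.95), iCre CTRL (7.79 CPM, next 2.36) and iCre with bFGF (6.38 CPM, next 1.80), and for *Fosl1* in iCre with IL-1β (90.4 CPM, next 53.5). Replicate 1 was the lowest for *Fosl2* in iCre with bFGF (176 CPM, next 265) and for *Junb* in LacZ with IL-1β (132 CPM, next 143).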

How the results depend on the processing

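The number of the 10 AP-1 genes called moved with the replicate block. In LacZ cells it gave 7 each with bFGF, IL-1β and TNFα, and in iCre cells 6 with bFGF, 6 with TGFβ and 8 with IL-1β. Between iCre and LacZ cells it gave 4 without ligand, 5 with bFGF, 4 with TGFβ and 7 with IL-1β, and in the interactions 1 for TGFβ, 5 for IL-1β and 4 for TNFα. The block changed no call of an AP-1 gene other than those given with the results, and lost none. With the block and the GC correction, the counts were 7, 8 and 7 in LacZ cells with bFGF, IL-1β and TNFα, 6 and 9 in iCre cells with bFGF and IL-1β, 5, 4, 4 and 9 between iCre and LacZ cells without ligand and with bFGF, TGFβ and IL-1β, and 1, 4 and 4 in the interactions with TGFβ, IL-1β and TNFα. The shares of all genes called were, in the same order, 27.5%, 33.9% and 36%, 16.4% and 29.4%, 14.8%, 13.8%, 9.26% and 22.6%, and 3.18%, 12.6% and 21.5%. DESeq2 called 3 in iCre cells with bFGF (11.7% of the genes it tested), 5 with TGFβ (51%), 1 between iCre and LacZ cells without ligand (8.88%), 1 with bFGF (3%), and 1 in each interaction with TGFβ (15.3%), IL-1β (17.5%) and TNFα (29.9%). A fit of all 40 libraries called 3 in iCre cells with bFGF (6.04% of all genes) and 1 between iCre and LacZ cells without ligand (1.61%). It called fewer in iCre cells with TGFβ (2 against 3, 41.7% of all genes) and with IL-1β (4 against 5, 19.4%). Over all comparisons this fit gained 6 calls of AP-1 genes and lost 3. Either other filter called 2 in iCre cells with bFGF (5.28% of all genes with filterByExpr and 2.45% with no filter). RLE scaling changed no call and no direction among the AP-1 changes called under some setting.

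Leaving out 1 replicate gave 1 to 5 genes in LacZ cells with bFGF (1.32% to 18.2% of all genes) and 1 to 7 with TNFα (10.5% to 23.5%), 0 to 5 in iCre cells with bFGF (0% to 12.7%), 0 to 3 between iCre and LacZ cells without ligand (0% to 2.78%), 0 to 4 with TGFβ (2.01% to 12.5%), 2 to 6 with IL-1β (6.18% to 16.6%) and 2 to 5 with TNFα (13% to 27.1%), and 0 to 1, 0 to 3 and 0 to 3 in the interactions with TGFβ (1.28% to 5.27%), IL-1β (2.37% to 6.85%) and TNFα (5.39% to 15.4%). Without replicate 2, *Fosl1* (2.15), *Fos* (1.42) and *Jun* (0.84) passed between unstimulated iCre and LacZ cells. Among these changes the sign turned for *Jun* in LacZ cells with TGFβ (0.04 with the block, 0.06 with the GC correction added, -0.35 to 0.39 leaving out a replicate), *Jund* in iCre cells with IL-1β (-0.09 to 0.02), *Jund* between iCre and LacZ cells with TGFβ (-0.32 with block and GC correction, -0.10 to 0.10 leaving out a replicate), and, with IL-1β, *Fosl2* (-0.18 to 0.00) and *Maff* (-0.04 to 0.03, and 0.01 in the fit of all 40 libraries). The 69 changes never called had 42 sign changes over all alternatives, such as *Maff* between iCre and LacZ cells with TGFβ (0.23, and -0.08 with block and GC correction). The causes were not tested. *Batf3*, with at most 20 counts in a library, was at the limit of the depth.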
